A study of Cenchrus purpureus with 8 samples.

Results

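The 200 loci described here were the steadiest in young stem of napiergrass (Cenchrus purpureus), a tall forage grass, among 66981 loci assembled from 8 germplasm entries. They were chosen by their own measured values: among the 15449 loci with fewer than 10 assembled transcripts and a mean of 10 to 200 CPM (the reads of a locus scaled to a common library total), these 200, or 1.29%, had the lowest coefficient of variation (CV, the SD over the mean) of CPM over the 8 libraries. The study compared 4 entries with high and 4 with low lignin, picked from earlier work, to find genes associated with lignin production. High lignin libraries 1 to 4 came from entries BAGCE 5, BAGCE 10, BAGCE 82 and BAGCE Pioneiro, and low lignin libraries 1 to 4 from entries BAGCE 7, BAGCE 32, BAGCE 96 and BAGCE 98. All 8 were poly(A)-selected RNA-seq libraries of the uppermost stem nodes, 1 library per entry, with no treatment. Read totals ran from 15405987 to 17997520 in high lignin libraries and from 14925391 to 16970262 in low lignin libraries.

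Loci whose RNA differs little between genotypes are sought as reference genes, the internal standards against which quantitative PCR and other relative measurements are scaled. In plants such standards are commonly taken from genes of the cytoskeleton, protein synthesis, the ubiquitin system and basic membrane traffic, cell functions that most tissues need. A reference gene is useful only if its steadiness carries over to samples that were not used to pick it, and if it does not rest on 1 way of scaling the libraries. The identifiers here (MSTRG with a number) are those of a transcript assembly, and the files do not pair them with gene names, so no function is given for any locus and the stem label could not be checked against marker genes. With a single library for each entry, what sets an entry apart and what varies from plant to plant within it cannot be told apart. In stem pieces, fewer cells of a type and less RNA per cell cannot be told apart either.

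The CV of CPM ran from 5.34% to 15.8% over the 200 loci, with a median of 14.2%, beside a median of 48.9% over all eligible loci. These values made the choice and are given as a description. The highest library stood 1.17 to 1.77 times above the lowest at each of the 200, with a median of 1.51, and at no locus of the 200 did that ratio reach 2. Over all eligible loci it was 2 or more at 91.7%. A CV below 10% was rare, with 13 loci in all. Counting error alone would give a median CV of 4.45% at the 200 loci, and their CV was 1.12 to 8.6 times the counting error. If each read was counted once, nearly all of them varied between entries by more than the reads' own sampling. At the 96 loci with a single transcript, where no read can be counted for a second transcript of the locus, that ratio ran from 1.39 to 8.32 with a median of 2.72.

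**Figure D1:**
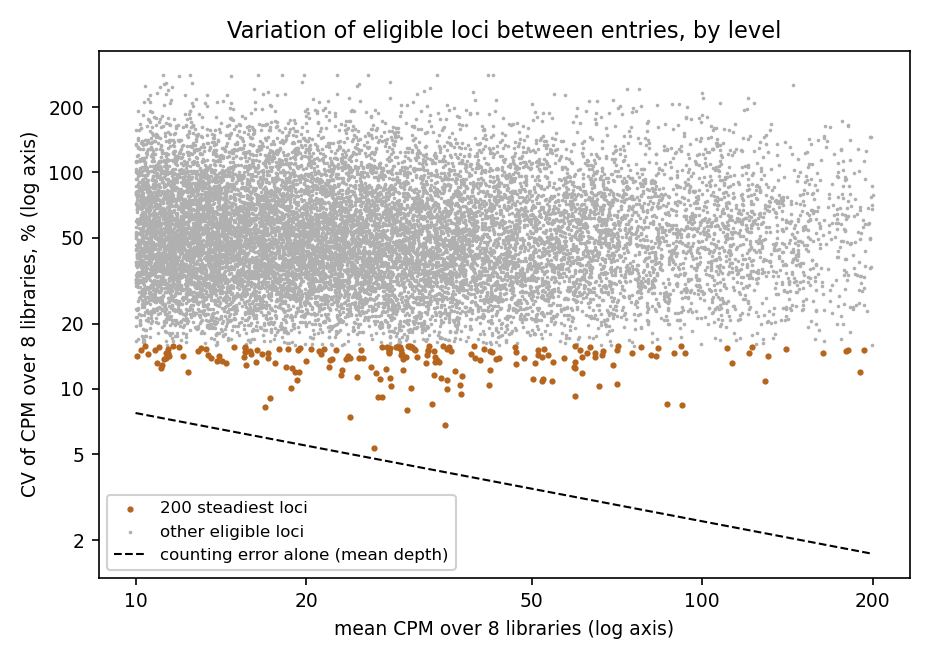
Mean CPM (x, log axis) against the CV of CPM over 8 libraries (y, log axis) for the 200 steadiest loci and the other eligible loci, with the CV that counting reads would give at the mean depth (dashed). The 200 lie between 5.34% and 15.8% at every level from 10 to 200 CPM, the lowest of them near the dashed line. The line takes each read as counted once.

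The locus with the lowest CV, MSTRG.61943 (CV 5.34%), had 28.4, 26.3, 26.7 and 26.6 CPM in high lignin libraries 1 to 4 and 24.8, 24.3, 25.6 and 27.9 CPM in low lignin libraries 1 to 4. High lignin library 1 was the highest and low lignin library 2 the lowest, and the groups overlapped. Its counting error was 4.77%, from 398 to 511 reads per library over its 2 transcripts. That error is too low if reads were counted for both transcripts, a question taken up below. MSTRG.43748 (CV 6.78%) had 35.8, 36.8, 37.5 and 31.98 CPM in high lignin and 38.6, 34.8, 32.5 and 33.7 CPM in low lignin. Here low lignin library 1 was the highest and high lignin library 4 the lowest, so the extremes fell in the opposite groups. MSTRG.13816 (CV 7.43%), with a single transcript of 930 bases, had 22.7, 23.3, 23.4 and 27.8 CPM in high lignin and 23.3, 23.6, 24.6 and 22.0 CPM in low lignin. Apart from high lignin library 4, its 7 other libraries stayed between 22.0 and 24.6 CPM.

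MSTRG.25228 (CV 8.01%) had 33.7, 32.8, 31.9 and 28.8 CPM in high lignin and 26.8, 28.1, 29.5 and 29.3 CPM in low lignin. High lignin libraries 1 to 3 lay above all low lignin libraries, and high lignin library 4 lay among them. MSTRG.17765 (CV 8.26%) was less abundant, at 16.7, 15.2, 15.8 and 18.6 CPM in high lignin and 16.3, 19.4, 17.0 and 16.3 CPM in low lignin. Its counting error, 5.95%, came from 243 to 322 reads per library. A pair of loci at higher levels followed. MSTRG.28594 (CV 8.39%) had 102.0, 79.0, 92.8 and 102.6 CPM in high lignin and 85.9, 90.5, 92.2 and 92.7 CPM in low lignin. MSTRG.53537 (CV 8.53%) had 89.7, 73.9, 91.7 and 93.1 CPM in high lignin and 78.6, 81.96, 93.5 and 89.8 CPM in low lignin. Both were lowest in high lignin library 2, and their counting error was 2.55% and 2.63%.

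The last of the 10 were MSTRG.45545, MSTRG.50930 and MSTRG.16694. MSTRG.45545 (CV 8.56%) had 31.6, 31.4, 35.2 and 38.8 CPM in high lignin and 35.5, 30.6, 31.4 and 32.4 CPM in low lignin. MSTRG.50930 (CV 9.03%) had 16.7, 17.4, 17.2 and 18.9 CPM in high lignin and 14.5, 16.4, 19.7 and 17.4 CPM in low lignin. The range of MSTRG.50930 was wider in low lignin, which held both its lowest and its highest library. MSTRG.16694 (CV 9.14%) had 30.8, 28.7, 23.1 and 27.6 CPM in high lignin and 25.9, 27.8, 26.2 and 24.3 CPM in low lignin. There the high lignin group held both extremes. No single library was the extreme one throughout. High lignin libraries 1 and 4 and low lignin libraries 1, 2 and 3 each took the highest place at one or more of the 10 loci, and high lignin libraries 2, 3 and 4 and low lignin libraries 1, 2 and 4 the lowest.

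**Figure D2:**
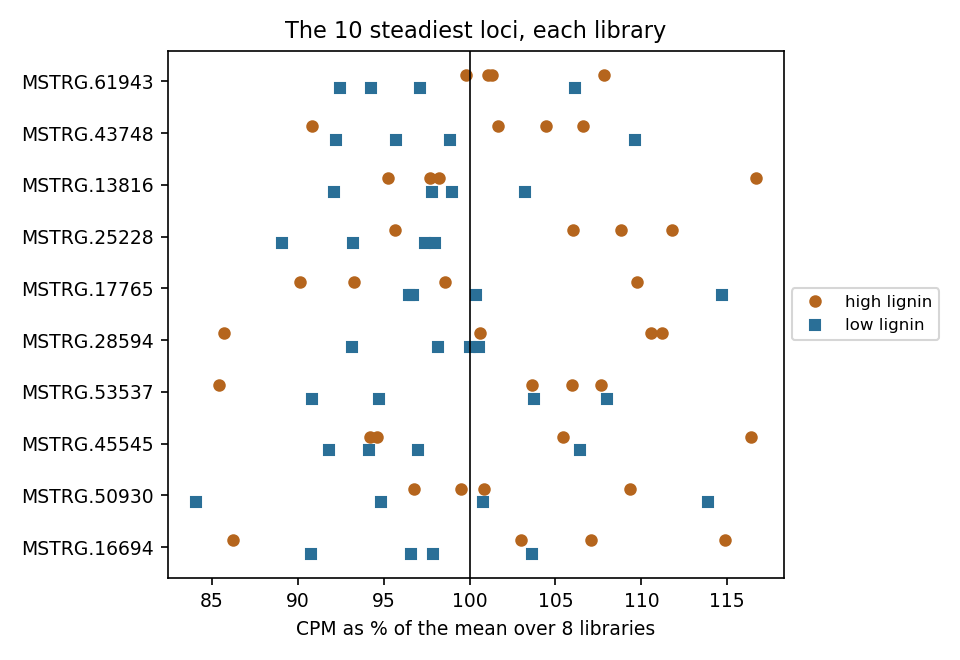
CPM of the 10 steadiest loci in each library, as a percentage of the locus' mean over 8 libraries (x), with high lignin libraries as circles above low lignin libraries as squares. The groups overlap at all 10 loci, and the library at the edge differs from locus to locus.

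The limit of the choice lay in the lower tail of the distribution, at 1.29% of the eligible loci, with close neighbours on both sides. The last 3 loci inside had CVs of 15.81% (MSTRG.29054), 15.82% (MSTRG.47337) and 15.83% (MSTRG.18319). The first 3 outside had 15.84% (MSTRG.49702), 15.85% (MSTRG.62633) and 15.88% (MSTRG.46133). MSTRG.18319 had 71.6, 74.0, 78.4 and 86.0 CPM in high lignin and 67.5, 54.0, 56.8 and 80.9 CPM in low lignin, and MSTRG.49702 had 30.2, 29.9, 30.6 and 28.1 CPM in high lignin and 31.9, 21.3, 22.7 and 22.4 CPM in low lignin. The range of library values, 54.0 to 86.0 CPM inside and 21.3 to 31.9 CPM outside, was of like size relative to the level.

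Steadiness was not tied to 1 level of expression. Between 10 and 20 CPM lay 54 of the 200 loci (27.0%, against 41.6% of eligible loci), between 20 and 50 CPM 93 (46.5% against 38.1%), between 50 and 100 CPM 41 (20.5% against 14.0%) and between 100 and 200 CPM 12 (6.0% against 6.25%). The median CV of eligible loci was 50.1%, 47.2%, 48.6% and 52.0% in the same 4 classes, so the median differed little with level. Being among the 200 differed more: 0.839%, 1.58%, 1.89% and 1.24% of the eligible loci in these classes were. The most abundant of the 200, MSTRG.39961, had 232.4, 184.9, 177.2 and 209.3 CPM in high lignin and 204.6, 162.5, 149.6 and 222.8 CPM in low lignin. MSTRG.2167 had 162.8, 192.2, 224.8 and 186.2 CPM in high lignin and 190.0, 216.2, 159.6 and 189.1 CPM in low lignin. The least abundant, MSTRG.6567, had 9.83, 7.57, 11.7 and 10.3 CPM in high lignin and 11.3, 8.75, 9.66 and 11.4 CPM in low lignin. MSTRG.44070 had 11.3, 11.6, 9.48 and 11.1 CPM in high lignin and 8.1, 9.79, 8.31 and 12.3 CPM in low lignin, from 137 to 207 reads per library.

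Per length, in the authors' TPM summed over the transcripts of a locus, the order of levels changed. MSTRG.2167, whose only transcript is 910 bases long, averaged 305.8 TPM, while MSTRG.39961, whose main transcript has 5757 bases, averaged 45.1 TPM. The longest main transcripts among the 200 were those of MSTRG.5839 (6552 bases, mean 33.9 TPM), MSTRG.36592 (5854 bases, mean 15.2 TPM) and MSTRG.39961. MSTRG.5839 had 161.5, 190.1, 155.5 and 179.0 CPM in high lignin and 162.1, 147.8, 118.8 and 191.1 CPM in low lignin. MSTRG.36592 had 62.9, 62.2, 58.7 and 58.7 CPM in high lignin and 74.2, 51.6, 47.6 and 61.0 CPM in low lignin, so that its 4 high lignin libraries lay inside the range of the low lignin libraries. The median length of the main transcript was 1675 bases at the 200 loci and 1803 over all eligible loci. The level per length had a median of 26.1 TPM at the 200 and 20.3 TPM over all eligible loci, and the CV of TPM a median of 14.9% at the 200 and 49.99% over all eligible loci.

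The share of reads taken by the 200 loci was held nearly even by the rule, which used the same CPM values, and is given as a description. The loci together took 0.814%, 0.788%, 0.868% and 0.849% of the reads in high lignin libraries 1 to 4 and 0.815%, 0.768%, 0.789% and 0.853% in low lignin libraries 1 to 4. High lignin libraries averaged 0.83% ± 0.036 and low lignin libraries 0.806% ± 0.0366 (SD, n = 4 each), with overlapping groups. High lignin library 3 was the highest library at 40 of the 200 loci and the lowest at 6. Over all eligible loci it was the highest at 8.38% and the lowest at 4.07%. Low lignin library 2 was the lowest at 43 of the 200 (21.5%, against 20.9% of eligible loci). It was the highest at 17 (8.5%, against 11.9% of eligible loci). Its lowest place was thus about as common among all eligible loci. High lignin library 3 took the highest place more often at the 200, a difference that was not tested. A scaling factor taken from the 200 loci alone ran from 0.927 in low lignin library 2 to 1.06 in high lignin library 3. TMM factors, computed from all loci, ran from 0.881 in high lignin library 2 to 1.22 in low lignin library 4, a ratio of 1.38 between the highest and the lowest. For RLE factors that ratio was 1.45. For the factors from the 200 loci it was 1.15, and their closeness to 1 is built in, since the loci were selected on steady CPM.

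The choice of scaling decided much of the list. With CPM scaled by TMM, 75 of the 200 were still among the 200 steadiest, and with RLE 57. Under TMM the CV was higher at 143 loci and lower at 57, the median moved to 15.2%, and 84 loci passed the limit of the original choice. Such a rise is partly built in, since the loci were picked for a low CV without that scaling. Over all eligible loci the median CV was 48.1% with TMM and 48.9% with library totals. MSTRG.43748, second by CPM, stood at rank 329 of the eligible loci under TMM, with a CV of 15.6%. MSTRG.25228 stood at rank 192 (CV 14.1%) and MSTRG.16694 at rank 389 (CV 16.1%). MSTRG.28594 and MSTRG.53537 stayed at ranks 6 and 4 under TMM, with CVs of 8.49% and 8.25%, and MSTRG.61943 stood at rank 12 with 9.05%. In all, 24 loci stayed among the 200 steadiest under both scalings, the authors' TPM, the most abundant transcript alone, 2 other measures of spread and each library left out in turn. Of the 10 steadiest, 7 were among these 24, and MSTRG.43748, MSTRG.25228 and MSTRG.16694 were not.

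**Figure D3:**
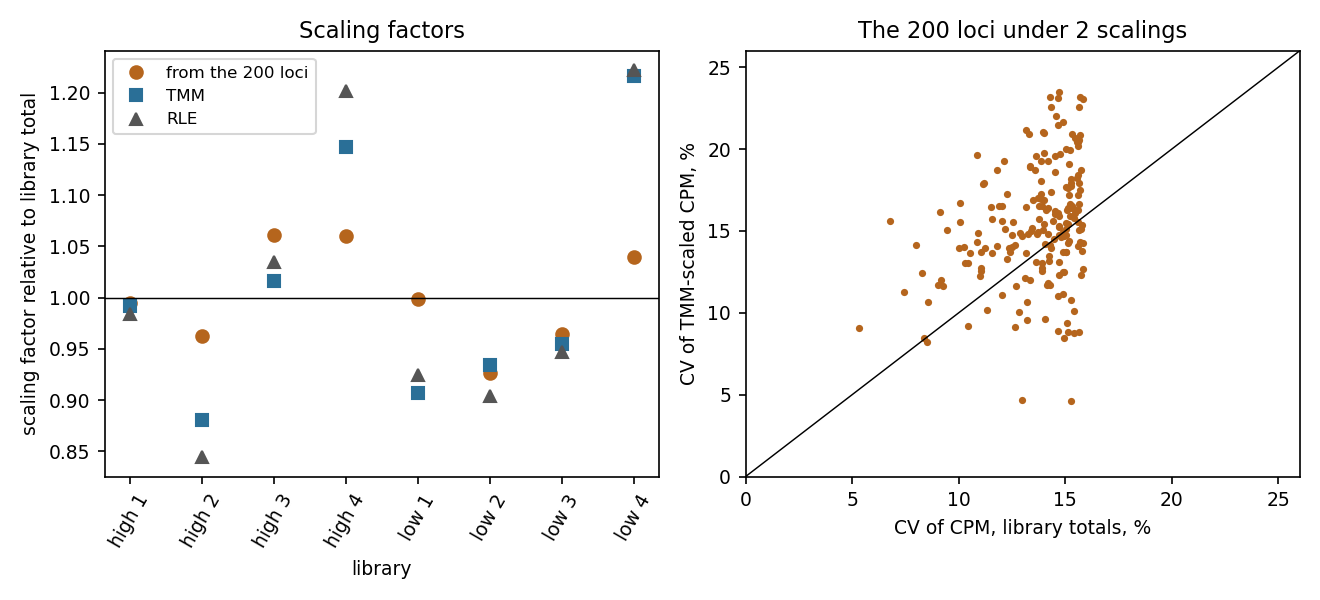
Left, scaling factors of the 8 libraries (x) from the 200 loci, TMM and RLE, relative to the library total (y). Right, the CV of each of the 200 loci with library totals (x) and with TMM scaling (y), with a line of equal values. The factors from the 200 loci stay between 0.927 and 1.06, and 143 of the 200 loci lie above the line. Both are partly built in, since the loci were chosen for a low CV with library totals.

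Steadiness was next measured in libraries that had no part in the choice. For each library in turn, 200 loci were chosen by the same rule on the other 7, and the left-out library was set against the mean of those 7 as an absolute log2 ratio of CPM + 0.5. The median over the chosen loci was 0.312, 0.326, 0.237 and 0.251 in high lignin libraries 1 to 4 and 0.278, 0.365, 0.278 and 0.335 in low lignin libraries 1 to 4. Over all eligible loci it was 0.729, 0.605, 0.387 and 0.516 in high lignin and 0.516, 0.663, 0.414 and 0.605 in low lignin. The chosen loci were closer in 8 of 8 libraries, at a mean of 0.298 ± 0.0442 against 0.554 ± 0.118 for eligible loci (SD, n = 8), or 1.23-fold against 1.47-fold. Within 1.5-fold of the other 7 libraries lay 81.3% ± 6.75 of the chosen loci and 53.2% ± 8.81 of the eligible loci (SD, n = 8). No test was made of these 8 values, since the choices share most of their libraries.

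A choice that shared no library with the measurement gave nearly the same distance. Loci chosen on the 4 low lignin libraries deviated in high lignin libraries 1 to 4 by a median of 0.399, 0.325, 0.246 and 0.286, where all eligible loci deviated by 0.788, 0.546, 0.339 and 0.554. Loci chosen on the 4 high lignin libraries deviated in low lignin libraries 1 to 4 by 0.297, 0.45, 0.258 and 0.31, where eligible loci deviated by 0.5, 0.73, 0.475 and 0.624. The chosen loci were closer in 8 of 8 libraries, by a mean of 0.248 ± 0.0872 on the log2 scale (SD, n = 8; exact two-sided sign-flip permutation test over libraries, p = 0.00781, the smallest that 8 libraries can give). The 4 libraries of 1 group share the loci chosen, the eligible loci and the mean they were set against. The 8 differences are therefore not independent, and the p-value, which treats them as if they were, can be too small. High lignin library 1 and low lignin library 2 deviated most at the chosen loci.

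**Figure D4:**
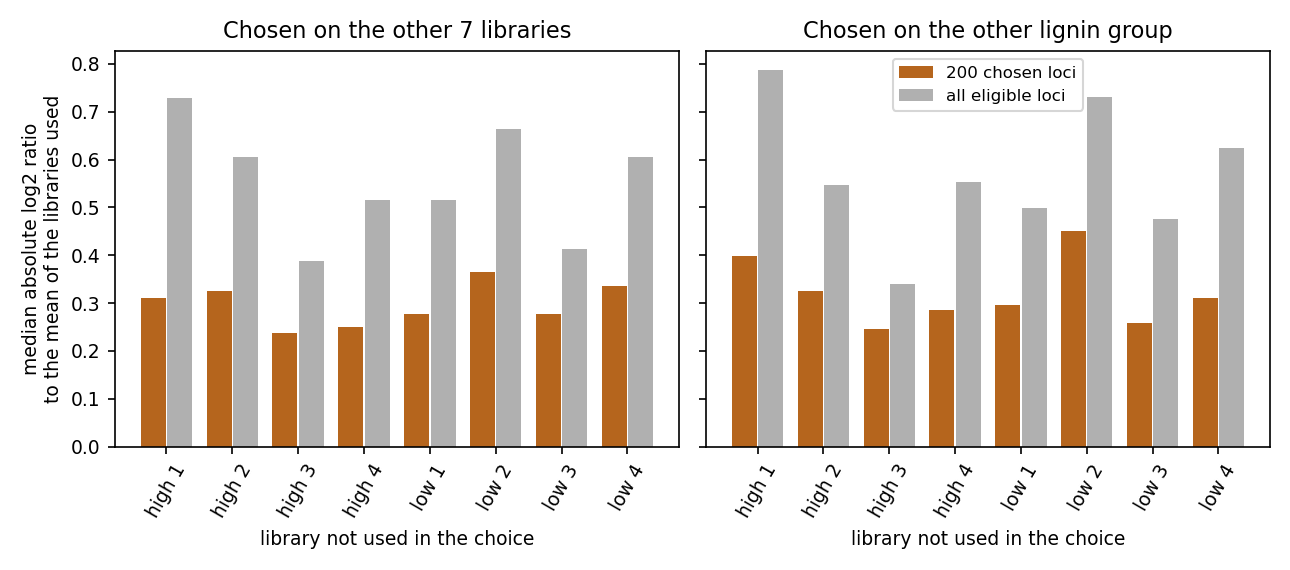
Median absolute log2 ratio (y) of each library (x) to the mean of the libraries used for the choice, for the 200 chosen loci and all eligible loci. Left, loci chosen on the other 7 libraries. Right, loci chosen on the other lignin group. The chosen loci are lower in all 8 libraries in both panels, between 0.237 and 0.45.

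The steadiness seen within the libraries used for the choice was much closer than that seen outside them. The 200 loci chosen on low lignin had a median CV of 7.74% over the low lignin libraries that chose them and of 28.4% over the high lignin libraries, where all eligible loci had 45.7%. The 200 chosen on high lignin had a median CV of 7.02% over high lignin and 28.5% over low lignin, where all eligible loci had 43.5%. Both lists held 6 loci in common, or 3.0% of each, where 200 loci are 1.29% of those eligible over all 8 libraries. Of the 200 loci of this report, 47 were among those chosen on high lignin alone and 41 among those chosen on low lignin alone, and 78 stayed in the list when any 1 of the 8 libraries was left out.

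The lignin comparison of the study was fitted over all loci, and the 200 are described within it. With edgeR's quasi-likelihood test 0 of 46894 loci (0%) passed an adjusted p of 0.05, with 1094 loci at an unadjusted p under 0.05. The count from limma-voom was 0 too (1120 loci at an unadjusted p under 0.05), and DESeq2 called 52 of 66918 loci (0.0777%), 0 of them among the 200, with 3052 at an unadjusted p under 0.05. All 200 passed the filter on low counts. Since the rule kept loci with little variation over the same 8 libraries, a small difference between groups is built in, and nothing is read from it. The log2 fold change, high over low lignin, ran from -0.31 to 0.31 over the 200, with a median size of 0.08, beside 0.42 over all tested loci. With TMM 124 loci were higher and 76 lower in high lignin, with RLE 117 and 83, with upper-quartile scaling 122 and 78, and with library sizes alone 130 and 70. The balance turned when single libraries were left out. With low lignin library 4 left out, 67 were higher and 133 lower, with high lignin library 3 left out 83 and 117, and with high lignin library 2 left out 99 and 101.

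The locus with the highest fold change among the 200 was MSTRG.36585, at 12.3, 14.7, 11.6 and 12.04 CPM in high lignin and 10.9, 9.85, 9.9 and 9.92 CPM in low lignin. All 4 high lignin libraries lay above the 4 low lignin libraries, at a log2 fold change of 0.31 (SE 0.32). MSTRG.53335 had 76.0, 68.4, 77.0 and 59.9 CPM in high lignin and 65.0, 51.6, 56.0 and 52.9 CPM in low lignin (log2 fold change 0.30, SE 0.31), with overlapping groups. At the other end, MSTRG.15511 had 9.0, 10.03, 10.6 and 11.3 CPM in high lignin and 10.6, 14.2, 12.2 and 13.4 CPM in low lignin (log2 fold change -0.31, SE 0.30), and its groups overlapped. MSTRG.41399 had 22.4, 21.2, 22.8 and 19.5 CPM in high lignin and 29.4, 28.1, 23.8 and 23.8 CPM in low lignin (log2 fold change -0.31, SE 0.31), with every high lignin library below every low lignin library. Groups that did not overlap were found at 4 of the 200 loci (2.0%), 3 with high lignin above (MSTRG.25294 and MSTRG.33227 besides MSTRG.36585) and 1 with high lignin below. Over all tested loci such groups were found at 1.19%, at 0.614% with high lignin above and at 0.578% with high lignin below. At the 4 loci with the most extreme fold changes the difference was about the size of the fit's standard error. That error draws partly on the variation of all loci tested, so it does not measure the spread of these loci alone. MSTRG.36585, picked as an extreme, had 12.7 ± 1.41 CPM in high lignin and 10.1 ± 0.493 CPM in low lignin (SD, n = 4 each).

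The rule used the sum of a locus' reads and not how they divide among its transcripts. A steady sum still leaves less room for a single transcript to swing. Differences from eligible loci in how the division varied are therefore partly built in. At 104 of the 200 loci (52.0%, against 54.0% of eligible loci) there were 2 or more transcripts, and at 27 there were 4 or more. The counts of these transcripts were close to equal. In the 58 loci with 2 transcripts the more abundant one took a median of 52.0% of the reads, in the 19 loci with 3 it took 35.2%, and in the 13 loci with 4 it took 26.8%. At 85 of the 104 loci (81.7%) the main transcript lay within 5 percentage points of an equal split, as it did at 71.4% of the 8343 eligible loci with 2 or more transcripts.

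The ratio between transcripts was also steadier than separate reads would allow. Over the 8 libraries the log2 ratio of the main transcript to the others had a median SD of 0.0553 at the 104 loci, while independent counting of those reads gives 0.128. The SD was below the counting error at 94 of the 104 loci (90.4%) and at 77.5% of the eligible loci. Counts of 1 locus that vary together more closely than independent reads show that the deposited transcript counts are not independent of each other. How reads shared between transcripts were treated is not given in the sources used here. If a read was counted for more than 1 transcript, the CPM of a locus with several transcripts is too high and its counting error too low. With the most abundant transcript of each locus alone, 180 of the 200 loci stayed among the 200 steadiest, and 152 when the library totals and the window of levels also came from those transcripts. The 96 loci with 1 transcript keep their reads under such a change, so these counts bear little on how shared reads were treated.

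**Figure D5:**
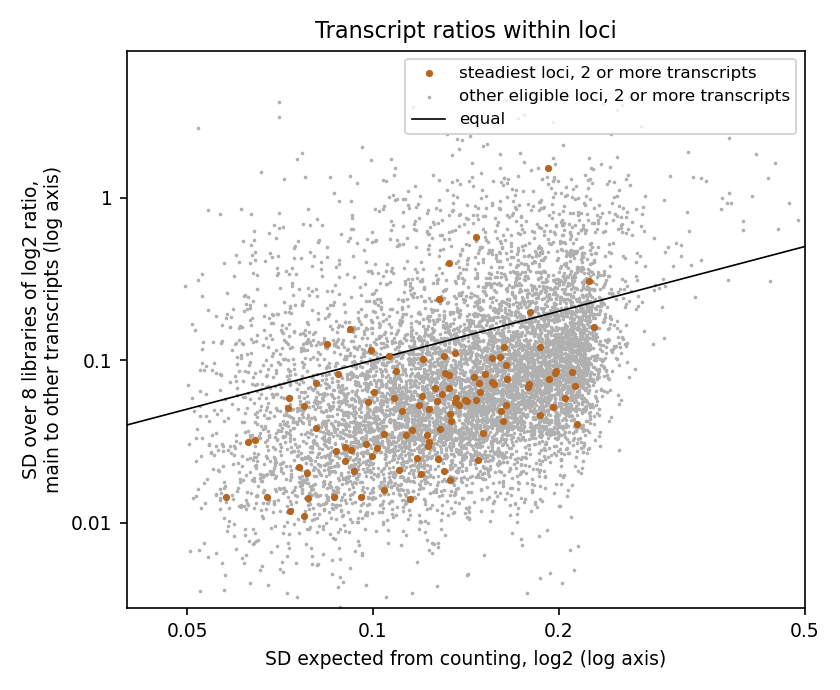
For loci with 2 or more transcripts, the SD over 8 libraries of the log2 ratio of main to other transcripts (y, log axis) against the SD that independent counting would give (x, log axis), for the 104 steadiest loci and the other eligible loci, with a line of equal values. Of the 104, 94 lie below the line. A further 14 eligible loci fall outside the axes.

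The share of the main transcript moved by less than 5 percentage points over the 8 libraries at 92 of the 104 loci (88.5%, against 67.8% of eligible loci) and by 20 points or more at 2 (1.92%, against 4.51% of eligible loci). At MSTRG.52738 the main transcript, of 1436 bases, took 98.9%, 97.2%, 92.0% and 91.1% of the reads in high lignin and 71.8%, 88.5%, 90.6% and 88.8% in low lignin. Every high lignin library lay above every low lignin library in this share, at the nearest by 91.1% against 90.6%. The locus was picked for its wide range, whose low end is low lignin library 1. How often the groups separate in this share at other loci was not counted. The second transcript, of 1351 bases, had 7, 18, 42 and 54 reads in high lignin and 216, 48, 55 and 64 reads in low lignin, while the locus sum had a CV of 15.2%. At MSTRG.54810 the main transcript took 49.9%, 30.7%, 48.5% and 37.2% in high lignin and 28.4%, 48.7%, 46.8% and 52.6% in low lignin, with overlapping groups. At MSTRG.38663 it took 69.4%, 68.7%, 53.4% and 53.9% in high lignin and 68.5%, 62.3%, 66.9% and 64.6% in low lignin, so that high lignin libraries 1 and 2 lay above all low lignin libraries and high lignin libraries 3 and 4 below them.

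Transcript use was tested against lignin group over all loci with 2 or more tested transcripts. EdgeR's diffSpliceDGE F-test called 1 of 15356 loci (0.00651%) at an adjusted p of 0.05, and 0 of the 104. At an unadjusted p under 0.05 there were 24 loci in all (0.156%) and 2 of the 104, MSTRG.64637 and MSTRG.52738, both with an adjusted p of 1.0. That is far fewer than such a threshold passes where no locus differs. The F-test takes the transcript counts of a locus as independent, which they are not. Its few calls therefore cannot show that transcript use was alike in the groups. A limma test of the log2 ratio of main to other transcripts, which uses the spread of the ratio itself and was chosen after the data were seen, also called 1 of 15356 loci (0.00651%) and 0 of the 104. There 589 loci (3.84%) and 3 of the 104 had an unadjusted p under 0.05. For MSTRG.52738 the log2 ratio was higher by 1.95 (SE 0.78) in high lignin, with an adjusted p of 0.997 in limma.

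The loci with most transcripts among the 200 were MSTRG.45758 and MSTRG.18291 with 9 each, followed by 4 loci with 7, of which MSTRG.43748 had the lowest CV. MSTRG.45758 had 34.2, 32.4, 33.5 and 35.6 CPM in high lignin and 27.1, 33.9, 25.3 and 38.2 CPM in low lignin, and its main transcript took 11.7% to 16.4% of the reads. MSTRG.18291 had 61.1, 53.0, 73.9 and 72.7 CPM in high lignin and 66.8, 56.4, 56.2 and 78.3 CPM in low lignin. In MSTRG.18291 the main transcript took 20.3% to 24.3% of the reads. Its CV was 14.6% with library totals, at rank 117, and 8.88% under TMM, at rank 11.

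The name of the most abundant transcript was not the same in every library at 37 of the 104 loci (35.6%), beside 46.8% of eligible loci with 2 or more transcripts. Where libraries with the top pair within 10% of each other were ignored, 5 of the 104 (4.81%) and 7.49% of eligible loci remained, so most such changes were between nearly equal counts.

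The 200 loci were spread over the numbering of the assembly, with 1 pair of consecutive numbers, MSTRG.53334 and MSTRG.53335. Eligible loci numbered next to one of the 200 had CVs close to those of the others, and the difference was not tested: the 117 of them had a median CV of 48.9%, with quartiles of 31.8% and 66.9%, and the eligible loci outside the 200 had a median of 49.3%, with quartiles of 34.3% and 73.1%. Whether the numbers follow the order along the chromosomes is not stated in the files.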

How the data were processed

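Per the file headers, the authors deposited for each library an estimated count of reads and a TPM value per assembled transcript (101169 in all), with transcript and effective lengths, which are other values and no measure of abundance. Per the submitters' processing notes, the tools were Salmon 0.7.2, StringTie 2.0.4, STAR 2.5.2b and FastQC 0.11.8. What each did, and the genome build and annotation, is not given in the sources used here. Of the estimated counts deposited, 99.974% were whole within 0.001. They were summed per locus for CPM and rounded to whole numbers before any test.

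The loci, lists and tests were chosen with earlier results of these data known. Groups come from the labels. Entries are the replicates. The p-values of the fits refer to the spread between entries, estimated partly from all loci together and not from each locus alone. Chi-square per degree of freedom between libraries of 1 group ran from 88.2 to 195.4 over 12 pairs, so no such pair was 1 library deposited more than once. Pairs across groups were not compared.

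Loci were tested with edgeR 4.0.16 (R 4.3.3): quasi-likelihood F-test, two-sided, TMM, filterByExpr, robust, lignin group as the only term, Benjamini-Hochberg over all loci. Transcript use was tested with diffSpliceDGE. Limma 3.58.1 and DESeq2 1.42.0 served as alternatives, and the sign-flip test used scipy 1.17.1. Standard errors of log2 fold changes are their size over the square root of F, and that of the log2 ratio comes from the limma fit. The fits were tested on simulated data.

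The loci described singly are the 10 with the lowest CV, 3 on each side of the limit, 2 each of the highest and lowest level and fold change, and 3 each of the widest share range, longest transcript and most transcripts. The consecutive pair, MSTRG.64637 and the other loci with groups that do not overlap were named after their values were seen.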

Additional observations from a re-analysis of the deposited data

Results flagged for a closer look

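A library far from the other 3 of its group, by Dixon's 95% limit, was found in 3 of 74 groups of 4 values tested. By chance such a limit is passed in about 1 in 20 groups, but that rate does not hold here. Most groups hold loci chosen for low CV, and some for extreme fold change or wide share range, in the same libraries. MSTRG.13816 had 27.8 CPM in high lignin library 4 and 22.7 to 23.4 CPM in the other high lignin libraries. MSTRG.36585 had 10.9 CPM in low lignin library 1 and 9.85 to 9.92 CPM in the other low lignin libraries. The main transcript of MSTRG.52738 took 71.8% of the reads in low lignin library 1 and 88.5% to 90.6% in the other low lignin libraries.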

How the results depend on the processing

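No paired analysis was possible because no label ties an entry of one group to an entry of the other. The list itself depended on the processing: of the 200 loci, 75 were kept with TMM, 57 with RLE, 150 with the authors' TPM, 180 with the most abundant transcript alone, 180 with the SD of log2 CPM, 156 with the range over the median, and 152 when totals and window also came from the most abundant transcripts, an alternative added after seeing the data. With 1 library left out, 120 (without low lignin library 2) to 149 (without high lignin library 3) were kept. The cause was not tested. The deviation outside the libraries used, chosen minus eligible loci, kept its direction in every alternative run: around -0.257 it ran from -0.294 to -0.182 with a library left out, and around -0.248 from -0.282 to -0.179. With TMM it was -0.266 and -0.265. The count of loci called for lignin group stayed at 0 in edgeR with all 4 other scalings, without a filter and with a library left out (lowest 0, highest 0), and was 52 in DESeq2. Transcript use was called at 1 locus, at 0 with the Simes test, limma-voom or a minimum of 10 reads in all libraries, and at 0 to 1 with a library left out (1 without high lignin library 1, 0 without any other). The limma test of the log2 ratio called 1, and 1 to 6 with a library left out (6 without low lignin library 3). The 37 loci whose top transcript changed name were 5 with near ties ignored and 32 to 37 with a library left out. The log2 fold changes of the 4 loci named for them kept their sign in all 60 alternative fits, between -0.46 and 0.43, which their choice as extremes makes likely. Their size moved over 1.5-fold towards 0 for MSTRG.36585 (0.16 when high lignin library 2, and 0.19 when low lignin library 4, was left out), MSTRG.53335 (0.16 without low lignin library 4) and MSTRG.41399 (-0.21 without low lignin library 1). Depth limits the least abundant loci: at 10 CPM, counting error was 7.73% of the level.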

Other observations

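A pair of the 200 loci, named after their values were seen, had a lower CV than any of the 10 steadiest loci once the libraries were scaled by all loci. MSTRG.54623 had 44.6, 44.3, 46.8 and 53.9 CPM in high lignin and 43.4, 40.4, 43.4 and 58.3 CPM in low lignin, with high values in high lignin library 4 and low lignin library 4. Its CV was 12.98% with library totals, 4.66% with TMM (rank 2 of the eligible loci) and 5.52% with RLE. MSTRG.6338 had 17.8, 14.7, 17.9 and 22.2 CPM in high lignin and 16.2, 16.0, 16.4 and 21.7 CPM in low lignin. Its CV was 15.3% with library totals, 4.6% with TMM (rank 1) and 2.38% with RLE, below the 5.79% that counting its reads would give. Its rank was the lowest of 15449 loci, and the lowest of that many values can fall under the counting error.

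MSTRG.65584, a locus with a large share of all reads, took 1.58%, 9.83%, 7.17% and 3.41% of the reads in high lignin libraries 1 to 4 and 4.17%, 7.8%, 13.2% and 6.7% in low lignin libraries 1 to 4. The TMM factors were 0.991, 0.881, 1.02 and 1.15 in high lignin and 0.907, 0.935, 0.954 and 1.22 in low lignin. The part of this locus in the scaling was not tested.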
